A study of Mus musculus with 12 samples.

Results

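The F1 head of mitochondrial ATP synthase is built from 5 kinds of subunit, and their mRNAs were examined here in 6 mouse RNA-seq libraries. The 5 genes are Atp5a1 (alpha), Atp5b (beta), Atp5c1 (gamma), Atp5d (delta) and Atp5e (epsilon), out of 55180 annotated genes listed in the files. They were chosen by their place in the enzyme, with earlier results of these data known. All 5 were among the 15013 genes detected with an expected count of at least 10 in every library. The study asks what the RNA-binding protein Larp1 does in the brain. Its labels describe 12 cortex samples: 6 Larp1 cKO samples carrying Nestin-Cre and Larp1-flox/flox, and 6 Larp1 WT samples carrying Nestin-Cre, each numbered as 3 replicates with 2 parts. Both genotypes therefore carry Nestin-Cre, a transgene active in neural progenitors, so deletion is not restricted to neurons. The methods describe C57BL/6J males and posterior cortex, and name no age for these RNA samples.

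The files carry mouse numbers (678, 687, 688, 698, 700 and 703) with no tie to a genotype in the sources used here. No genotype was assigned, and no groups of libraries were compared or tested. Values are given per library in the order of those numbers, or as range and median over the 6 libraries. The libraries held 34689262 to 44463362 expected counts (median 40566108). Neuronal Snap25 was at 715 to 1004 TPM and the cortical excitatory marker Slc17a7 at 347 to 492 TPM, while the cerebellar markers Pcp2 and Cbln3 and the muscle markers Ckm and Myh6 each stayed at or below 0.14 TPM. Of the striatal markers, Ppp1r1b was at 25.3 to 53.1 TPM and Drd2 at 0.29 to 3.03 TPM. In bulk tissue, fewer cells of a type and less RNA per cell cannot be told apart.

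ATP synthase makes ATP from ADP and phosphate with the energy of protons flowing back into the mitochondrial matrix. In the F1 head, alternating alpha and beta subunits form a ring whose beta subunits hold the catalytic sites. Gamma is the shaft that turns inside the ring, and delta and epsilon sit at its foot, where it meets the membrane rotor. One F1 holds 3 copies each of alpha and beta and 1 copy each of gamma, delta and epsilon. All of these proteins are made from nuclear genes and imported, and neurons draw on them heavily for ATP.

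Larp1 binds mRNAs that start with a C followed by a run of pyrimidines, the TOP motif, so the annotated 5′ ends of the subunit mRNAs are shown first. Each is the start of the isoform with the highest median TPM in GENCODE M21 (GRCm38), read 5′ to 3′ over 25 bases. Capitals mark an initial C with the pyrimidines that follow it.
Atp5b-201, chr10:128083273-128083297, plus strand: gcaggaccggcggagaggaccgctt
Atp5c1-203, chr2:10080486-10080510, minus strand: gctcacgagatttagcgagaccgag
Atp5d-201, chr10:80142315-80142339, plus strand: CCTTCggagaatcctgtgcgcgtgc
Atp5e-201, chr2:174464081-174464105, minus strand: gtaccccaccccttccgctactcag

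Atp5d was the 1 subunit mRNA of 5 with a C at base 1 and at least 4 pyrimidines after it, against 2.35% of 13625 detected nuclear protein-coding genes. Counting any annotated isoform still gave Atp5d alone, against 10.7% of those genes, as did a motif beginning within 5 bases of the start, against 10.8%. With at least 6 pyrimidines the count was 0 of 5, against 1.18%. The Atp5e start opens with G, and a C at base 9 is followed by 7 pyrimidines. Allowing the motif to begin within 10 bases, a window chosen after the starts were seen, gave Atp5a1, Atp5d and Atp5e, against 17.5% of the genes. A match is a description of the letters, and annotated starts can differ from those used in cortex. The paper instead scored TOP motifs from start sites measured in neonatal cortex. It describes clear motifs for most ATP synthase components and names Atp5e among the TOP mRNAs depleted in Larp1 cKO cortex. The counts given here do not measure the starts in use.

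RefSeq (GRCm38.p6) places some starts elsewhere, and these are shown because the first base decides whether the motif is present.
Atp5e, RefSeq start 174464101 on chromosome 2, minus strand: CCCaccccttccgctactcaggcct
Atp5c1, second RefSeq start 10080432 on chromosome 2, minus strand: CCCgtctgcccgaccttcaaggctc
Atp5b, RefSeq start 128083307 on chromosome 10, plus strand: gtctccacccggattccgccatgtt
Both Atp5e and the second Atp5c1 start then open with C, followed by 2 pyrimidines before a purine. From this Atp5e start, the C before the run of 7 pyrimidines lies within 5 bases of the start. The counts above used GENCODE starts only. Atp5b opens with G in both annotations, and in RefSeq that G is followed by 5 pyrimidines. RefSeq lists the Atp5d start shown above and another at 80142275 that opens with T.

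In every library Atp5b had the highest TPM of the subunits, Atp5a1 came next and Atp5c1 was lowest. TPM is a share of transcripts scaled by length, so levels of different genes can be set side by side. Atp5b, the catalytic subunit, had 419, 393, 362, 408, 370.5 and 439 TPM. These lie above all 6 values of any other subunit. Atp5a1, whose protein alternates with beta in the ring, had 214, 182, 184, 216, 178 and 222 TPM, again with no overlap with its neighbours.

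Atp5d, a subunit at the foot of the shaft, had 118, 105, 95.2, 119.9, 102 and 114 TPM. Its partner at the foot, Atp5e, had 122, 119.7, 81.2, 107, 116 and 99.98 TPM. The ranges of these genes overlap, and Atp5e was higher than Atp5d in 3 libraries (678, 687 and 700) and lower in the other 3. Atp5c1, which encodes the shaft, had 68.5, 65.2, 55.4, 57.1, 58.6 and 67.4 TPM, below every value of the other subunits.

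**Figure D1:**
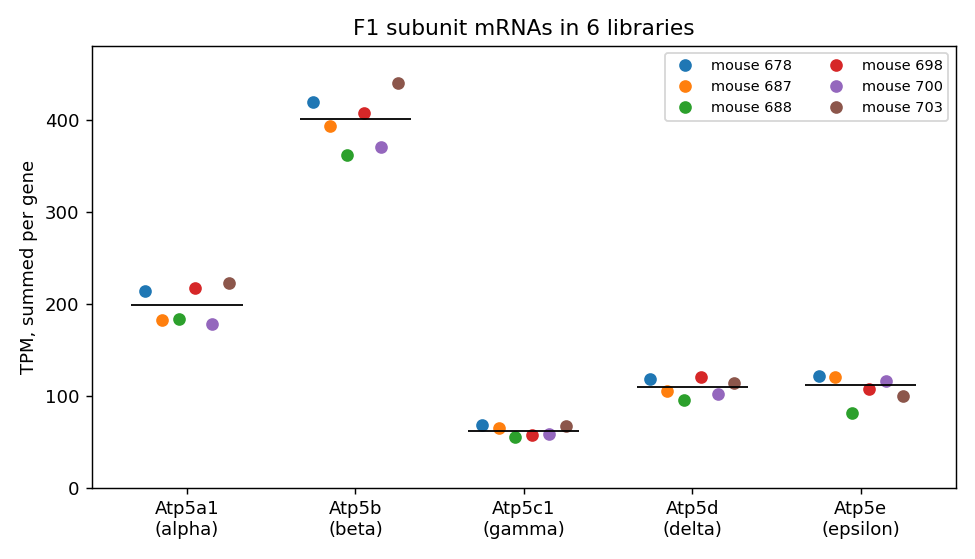
Level of each F1 subunit mRNA (y axis, TPM summed per gene) for the 5 genes (x axis), with 1 point per library and a bar at the median of the 6. Atp5b lies at 362 to 439 TPM and Atp5c1 at 55.4 to 68.5 TPM, and only the Atp5d and Atp5e points overlap.

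By median TPM, Atp5b (400.4) ranked 40 among the 13625 detected protein-coding genes, Atp5a1 (199) ranked 132, Atp5e (112) ranked 328, Atp5d (109.5) ranked 344 and Atp5c1 (61.9) ranked 763. The median over those genes was 6.75 TPM. The 5 subunits together held 942, 865, 777, 908, 826 and 943 TPM, which is 0.0777% to 0.0943% of all TPM. Much of that total was not mRNA: genes typed misc_RNA held 36.4% to 47.8% of it and nuclear protein-coding genes 22.7% to 28.8%.

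Counting error was small for each gene. Atp5e, the shortest mRNA, had the fewest counts, with 870 in mouse 688 and an exact Poisson 95% interval of 813 to 930. Its highest count was 1427 in mouse 687. Atp5b ran from 16991 to 22181 counts, and for its lowest library the interval spanned 1.51% to either side. These intervals cover counting error only, not the spread between animals.

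The gene with the largest share of the F1 mRNA was beta, well above the stoichiometric share, while alpha and gamma lay below theirs. A library's summed F1 TPM would be divided into 33.3% each for alpha and beta and 11.1% each for the other 3 if mRNA followed the subunit copies. Atp5b held 44.5%, 45.4%, 46.5%, 44.9%, 44.9% and 46.6%. Atp5a1 held 22.7%, 21.04%, 23.6%, 23.8%, 21.6% and 23.6%. All 6 libraries were thus above the copy share for beta and below it for alpha.

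Atp5c1 held 7.27%, 7.54%, 7.13%, 6.29%, 7.10% and 7.15%, below 11.1% in all 6. Atp5d held 12.1% to 13.2%, with a median of 12.3%, above it in all 6. Atp5e held 12.9%, 13.8%, 10.4%, 11.8%, 14.1% and 10.6%, so its libraries lay on both sides of 11.1%. Shares within a library do not depend on how libraries are scaled to each other.

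**Figure D2:**
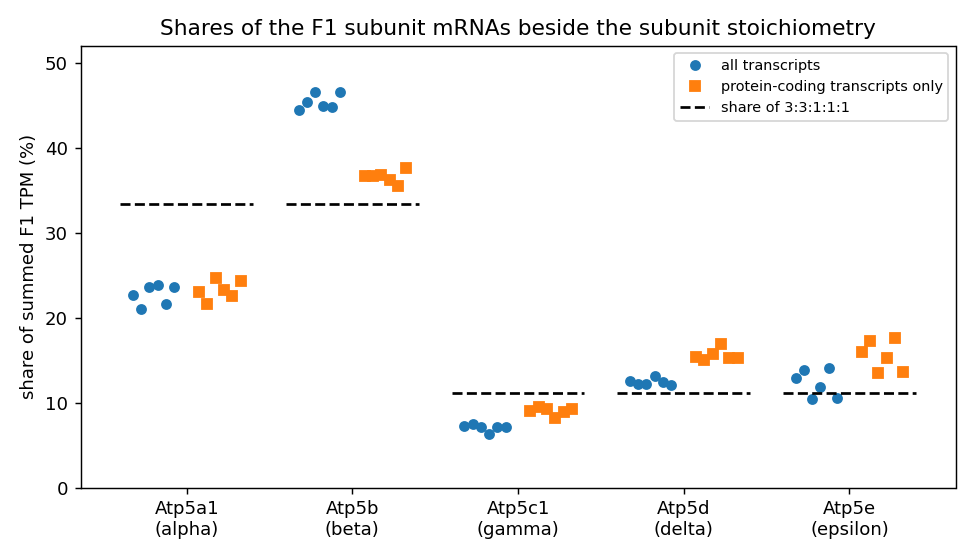
Share of each gene in the summed TPM of the 5 F1 subunits (y axis, %), for all transcripts (circles) and for transcripts typed protein-coding (squares), 1 point per library. Dashed lines are the shares that a 3:3:1:1:1 stoichiometry gives, and Atp5b is at a median of 45.2% over all transcripts and 36.6% over protein-coding ones.

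These shares depended on short isoforms that are not typed protein-coding. Atp5b has 9 annotated transcripts, of which 8 are typed as retained introns or processed transcripts, and they held 33.7% to 39.3% of its TPM but 8.42% to 10.2% of its expected counts. Most of this was Atp5b-206, a processed transcript of 478 bases with a median of 101 TPM, while the coding Atp5b-201 of 1916 bases had a median of 253 TPM. Atp5b-206 held a median of 6.56% of the gene's counts and 25.3% of its TPM. TPM divides reads by length, so reads on a short transcript weigh more.

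Atp5a1 had the same feature to a smaller degree. Its transcripts not typed protein-coding held 17.0% to 24.8% of its TPM and 5.09% to 7.97% of its counts, mainly in Atp5a1-203, a retained intron of 765 bases. For Atp5d these shares were at most 2.08% of TPM and 1.92% of counts, and for Atp5e at most 1.04% of TPM and 2.73% of counts. All 7 annotated transcripts of Atp5c1 are typed protein-coding.

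**Figure D3:**
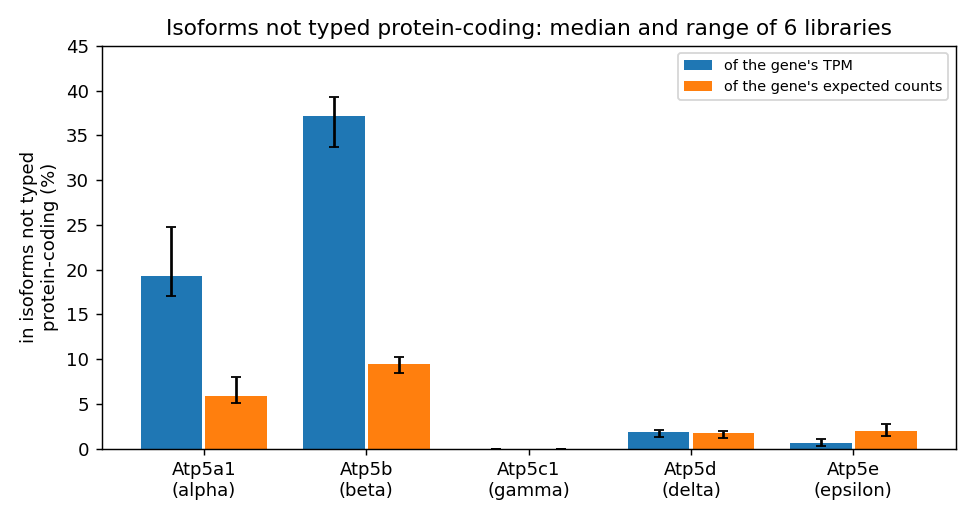
Percent of each gene's TPM and of its expected counts (y axis) assigned to isoforms not typed protein-coding, as the median over 6 libraries (bars) with the lowest and highest library (whiskers). The gap between the bars is widest for Atp5b, at 37.2% of TPM and 9.47% of counts.

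With protein-coding transcripts only, Atp5b held 35.6% to 37.7% of the F1 sum, still above its copy share of 33.3% in all 6 libraries. Atp5a1 held 21.7% to 24.6% and Atp5c1 8.17% to 9.49%, both still below their copy shares in all 6. Atp5d held 14.99% to 16.9% and Atp5e 13.5% to 17.6%, now both above 11.1% in every library. The order of the genes with Atp5b highest, Atp5a1 next and Atp5c1 lowest held in 6 of 6 libraries under each way of summing transcripts.

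The level per protein copy, taken as TPM divided by copies and set relative to beta, put numbers on these departures. For alpha this ratio was 0.511, 0.463, 0.508, 0.531, 0.481 and 0.506 over all transcripts, and 0.591 to 0.669 over protein-coding ones. Alpha mRNA was therefore below beta mRNA in all 6 libraries under both sums, although the proteins are present in equal number. For gamma the median was 0.467 over all transcripts and 0.748 over protein-coding ones, below 1 in all 6 libraries each time.

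Delta and epsilon stood on different sides of beta under the 2 sums. Delta had a median of 0.815 per copy relative to beta over all transcripts, below 1 in 6 of 6 libraries, and of 1.27 over protein-coding transcripts, above 1 in 6 of 6. Epsilon had medians of 0.831 and 1.29 on the same sums, with the same counts of libraries. With expected counts per kilobase of full transcript length, delta was at 1.06 and epsilon at 0.818. The side of beta on which delta and epsilon mRNA stood per copy thus depended on how transcripts were summed.

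Relative to alpha rather than beta, delta and epsilon stayed on 1 side and gamma did not. Delta per copy was 1.54 to 1.73 times alpha over all transcripts and 1.88 to 2.18 times over protein-coding ones. Epsilon per copy was 1.33 to 1.97 times alpha and 1.65 to 2.39 times on the same sums. With counts per kilobase delta was 1.60 to 1.82 times alpha and epsilon 1.04 to 1.52 times, so both were above 1 in every library under all 3 sums. Gamma was 0.791 to 1.08 times alpha over all transcripts, on both sides of 1, 1.05 to 1.31 times over protein-coding ones and 0.884 to 1.13 times with counts per kilobase.

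Atp5c1 (chr2:10056016-10080510, minus strand) showed 2 coding ends, which differ by exon 9 of 10, a cassette of 37 bases at chr2:10056770-10056806. The last coding bases are shown with the stop codon at the end. Capitals mark the bases of the cassette exon.
Atp5c1-203, exon included: ctctggggctgctgctctGGATTAA
Atp5c1-201, exon skipped: ctctggggctgctgctctgtaa
Inclusion makes the coding sequence 894 bases long, against 891 bases when the exon is skipped. Tissue-specific use of this exon has been described for the gamma subunit in mammals.

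The cortex libraries used mostly the form with the exon. Atp5c1-201, which skips it, had 3.97, 4.77, 2.27, 2.29, 4.2 and 5.68 TPM. This was 5.99%, 7.5%, 4.27%, 4.21%, 7.38% and 8.74% of the TPM of the 3 transcripts that span the exon. Mice 688 and 698 were lowest and mouse 703 highest. These are RSEM's assignments of shared reads to isoforms, and reads across the junctions were not analysed here.

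The genes lie apart in the genome of GRCm38. Atp5b (chr10:128083273-128090391, plus strand) and Atp5d (chr10:80138632-80145818, plus strand) are on chromosome 10, and Atp5e (chr2:174461072-174464105, minus strand) shares chromosome 2 with Atp5c1. Atp5a1 (chr18:77773729-77782869, plus strand) has 12 exons in its main isoform of 2471 bases, with 1659 coding bases. Atp5e-201 has 3 exons and 156 coding bases in 421 bases. The main isoforms of Atp5b, Atp5c1 and Atp5d have 10, 10 and 4 exons.

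Other genes overlap 4 of the 5. Atp5b holds 3 small RNA genes and Atp5c1 holds 1, all at 0 TPM. Haus1, on the opposite strand, shares 129 exonic bases with Atp5a1-201 and was at 1.94 to 2.82 TPM. Cbarp, on the strand opposite to Atp5d, was at 84.7 to 132 TPM, but none of its exons overlaps those of Atp5d-201. The labels name a directional kit, and the strand setting of RSEM was not stated there or in the methods. No other annotated gene shares an exact run of 75 bases with any of the 5 main isoforms, so near-identical copies added nothing to the sums.

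Between libraries, Atp5e varied more than the other 4 subunit mRNAs. TPM moves with the other RNA in a library: nuclear protein-coding genes held 22.7% to 28.8% of it, and in TPM the median of all detected genes shifted between -0.18 and 0.20 on the log2 scale. Under TMM-scaled CPM, counts scaled for library size with edgeR's trimmed mean, that shift was at most 0.01. Both scales are therefore given.

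In TPM the highest library was 1.247 times the lowest for Atp5a1, 1.21 times for Atp5b, 1.24 times for Atp5c1, 1.26 times for Atp5d and 1.5004 times for Atp5e. In Atp5d and Atp5e, 2 of 5, the highest library was at least 25% above the lowest, against 91.9% of detected genes. In Atp5e alone it was at least 1.5 times the lowest, against 47.9%. The median over all detected genes was 1.49.

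In TMM-scaled CPM the ratio was 1.18 for Atp5a1, 1.24 for Atp5b, 1.245 for Atp5c1, 1.2496 for Atp5d and 1.65 for Atp5e. Atp5e was then the 1 subunit with a highest library at least 25% above the lowest, against 60.8% of detected genes, and at least 1.5 times the lowest, against 28.2%. Atp5e stood at percentile 79.5 of all detected genes by this ratio and the other subunits at percentiles 21.6 to 39.1. The ratio carries counting error, which is larger for genes with fewer counts, and Atp5e had the fewest of the 5. In its lowest library, with 870 counts, the Poisson interval spanned 6.70% to either side. The detected genes include genes with as few as 10 counts, whose ratios carry more of this error. The shares and percentiles of detected genes were not matched for counts, on either scale.

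**Figure D4:**
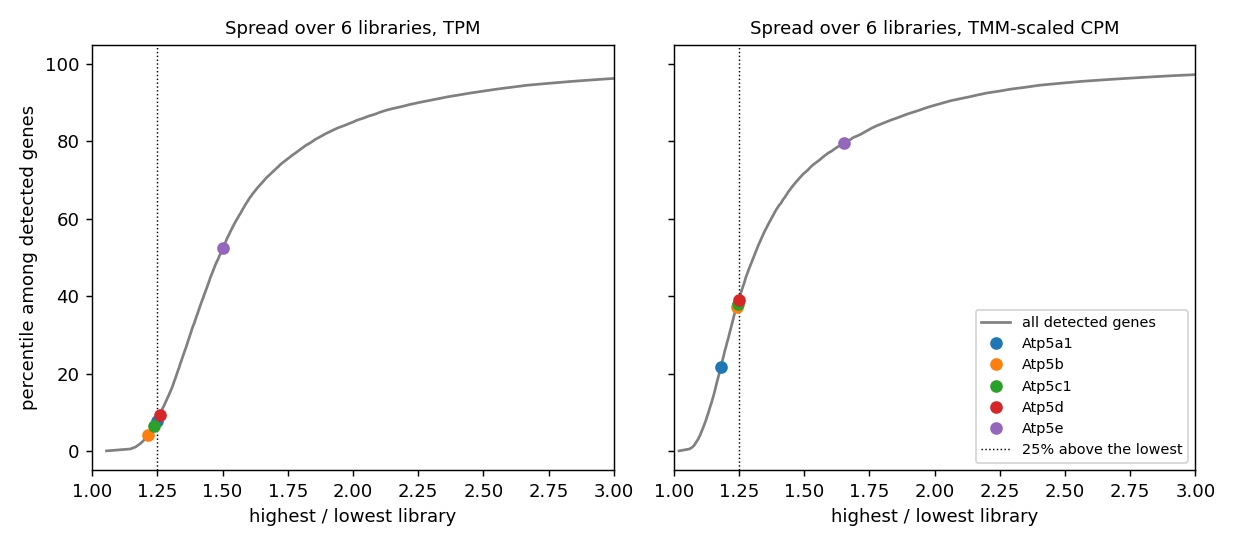
Highest over lowest of 6 libraries (x axis) against percentile among 15013 detected genes (y axis), in TPM (left) and TMM-scaled CPM (right), with the curve of all detected genes and 1 point per F1 subunit. Atp5e lies at 1.5004 and 1.65, and the other 4 subunits lie at or below 1.26 on both scales.

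Mouse 688 was the lowest library for Atp5b, Atp5d and Atp5e on both scales and after rescaling TPM to protein-coding genes. In TPM it was lowest for 4 of the 5 subunits, against 13.5% of detected genes, the exception being Atp5a1, which was lowest in mouse 700. In TMM-scaled CPM it was lowest for 5 of 5, against 15.3%. After rescaling to protein-coding genes Atp5a1 was lowest in mouse 687 and Atp5c1 in mouse 698. Without mouse 688, Atp5e spanned 1.22 times from lowest to highest in TPM, but 1.55 times in TMM-scaled CPM and 1.48 times in TPM rescaled to protein-coding genes. In TMM-scaled CPM, Atp5e was at 21.4 in mouse 688 and nearly as low, at 22.9, in mouse 703.

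Blood mRNAs also moved between these libraries. Hbb-bs and Hba-a1 together were at 1.43 TPM in mouse 688 and 2.78 TPM in mouse 700, and 13.5 to 18 TPM in the other 4 libraries. Their part in the subunit levels was not tested.

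Deviations from each gene's own mean over libraries, in log2(TMM-scaled CPM + 1), showed 1 subunit apart in size. Atp5e lay at 0.22, 0.19, -0.39, -0.02, 0.31 and -0.30. Atp5c1 lay at 0.15, 0.12, -0.16, -0.15, 0.14 and -0.09. Atp5b lay at 0.13, 0.05, -0.18, -0.02, 0.10 and -0.07, and Atp5a1 stayed between -0.12 and 0.12. On this scale mice 678 and 700 were above the mean for all 5 subunits, and mice 688 and 703 below it for all 5, while in TPM mouse 703 was above it for 4 and mouse 700 below it for 4.

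**Figure D5:**
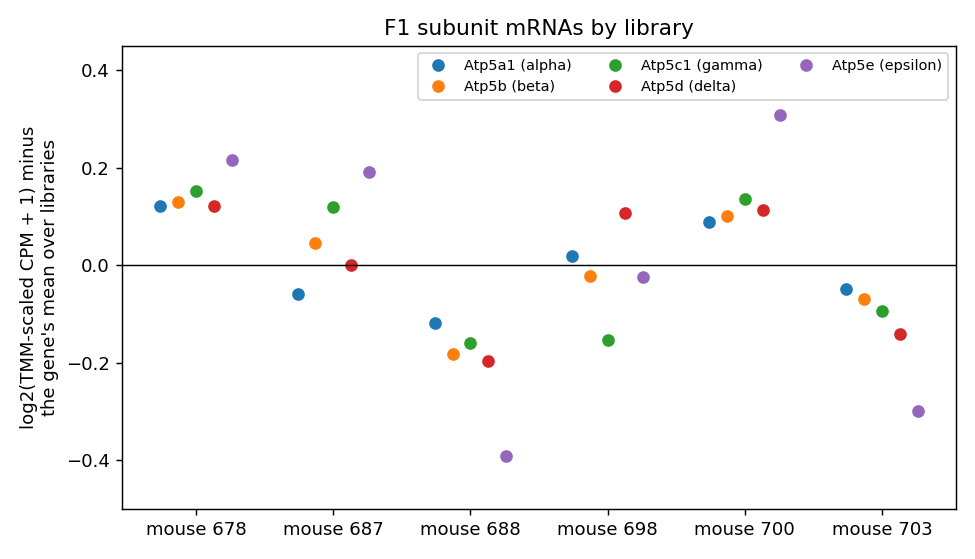
Deviation of each F1 subunit mRNA from its mean over libraries (y axis, log2 of TMM-scaled CPM + 1), for the 6 libraries (x axis), 1 point per gene. Atp5e spans -0.39 to 0.31, and mice 688 and 703 lie below 0 for all 5 genes.

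Between the subunits, the root mean square difference of these deviations was smallest for Atp5a1 and Atp5b, at 0.05 on the log2 scale, and was 0.06 to 0.07 for Atp5b with Atp5c1, Atp5b with Atp5d and Atp5a1 with Atp5d. For Atp5c1 it was 0.11 with Atp5a1 and 0.12 with Atp5d. It was 0.16 to 0.21 for Atp5e with each of the others, and it grows with a gene's own range. Genes within 1 log2 unit of Atp5e's mean level had a median difference of 0.285 from it. Of them, 3.75% (for Atp5c1) to 12.3% (for Atp5a1) were nearer to Atp5e than that subunit was. Seen from the other subunits, 37.4% (Atp5c1) to 87.3% (Atp5a1) of the genes at their level were nearer than Atp5e was. These are descriptions over 6 libraries that share one scaling.

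Levels were compared here in TMM-scaled CPM, which is not corrected for length. The genes whose pattern was nearest to each subunit were taken from the 397 to 4566 genes within 1 log2 unit of its mean level. For Atp5e they were Atp5h and Atp5l, subunits of the peripheral stalk and membrane part of the same enzyme, and Ndufb7, a Complex I subunit, with differences of 0.04, 0.05 and 0.05. For Atp5b they were Nat8l, which makes N-acetylaspartate, Slc25a4, the mitochondrial ADP/ATP carrier, and Aes, a transcriptional co-repressor. For Atp5c1 they were the proteasome assembly factor Pomp, the cytochrome c oxidase subunit Cox7a2 and the chaperonin subunit Cct2, all at 0.02 to 0.03.

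For Atp5a1 the nearest genes were Ttyh3, Wbp2 and the chromatin remodelling gene Smarcc2, at 0.02 to 0.04. For Atp5d they were the astrocyte adhesion gene Hepacam, the ceramide kinase gene Cerk and the peroxiredoxin Prdx6, at 0.03 to 0.04. Levels in TPM could lie further apart: medians were 22.2 for Hepacam, 12.1 for Cerk and 96.0 for Prdx6, against 109.5 for Atp5d. On log2(TPM + 1), 6 of these 15 genes were again among the nearest 3, of which Atp5h and Atp5l for Atp5e were 2. When single libraries were left out, 5 to 11 of the 15 were. For Atp5e, Atp5l stayed among the nearest 3 only without mouse 700, and Atp5h stayed in every case but that one.

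Other parts of the enzyme were compared over a fixed list of 12 peripheral stalk and membrane genes. The list holds nuclear genes only, and genes of the mitochondrial genome were not in it. Median levels of the F1 genes ran from 61.9 to 400.4 TPM, against 62.9 TPM (Atp5f1, stalk subunit b) to 216 TPM (Usmg5, a small membrane subunit) for this list, and Atp5b alone lay above the whole list. In TPM the highest library was 1.21 to 1.5004 times the lowest for the F1 genes, with a median of 1.247, against 1.31 to 1.62 with a median of 1.38 for the list. In TMM-scaled CPM the medians were 1.245 for the F1 genes and 1.44 for the stalk and membrane genes. This difference was not tested.

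Mouse 688 was the lowest library for 10 of the 12 on both scales. Atp5h, a stalk subunit, had 146, 135, 90.2, 118, 128 and 114 TPM. Its order of libraries resembled that of Atp5e, with mouse 678 highest and mouse 688 lowest in TPM for both. Atp5f1 was an exception, at 64.5, 64.6, 60.7, 61.2, 54.8 and 72.4 TPM. Like Atp5a1, in TPM it was lowest in mouse 700 and highest in mouse 703.

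The inhibitor mRNA was higher than those of the assembly factors in every library. Atpif1, which binds F1 and blocks ATP hydrolysis, was at 117 to 161 TPM with a median of 145, above delta, gamma and epsilon by median. Atpaf1 and Atpaf2, chaperones that hold beta and alpha before F1 is assembled, were at 5.92 to 8.91 and 4.44 to 6.64 TPM. Tmem70, which helps to assemble the rotor ring, was at 8.38 to 10.8 TPM. All 3 assembly mRNAs were therefore below every F1 value in each library.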

How the data were processed

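Reads were trimmed with cutadapt, aligned to mm10 with STAR and quantified with RSEM by the authors, with no versions stated. The deposited expected counts are raw estimates for each transcript, and the TPM deposited by the authors are scaled over 142351 transcripts. The methods name UCSC annotations, while the files list Ensembl identifiers. That the files are cortex is inferred from the labels. Here 12 value columns were used and 18 were not.

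Transcripts were matched to GENCODE M21 (GRCm38) by identifier without version (99.4% matched) and gene sums were taken. Scaling factors came from rounded gene counts, with edgeR 4.0.16 (TMM) or DESeq2 1.42.0 in R 4.3.3. A pseudocount of 1 was added before log2. A check for a library deposited more than once found none (chi-square of counts per degree of freedom 14.8 to 67.4 over 15 pairs). Libraries were not grouped, and no test of expression between them was run. Genes named were the 5 subunits, a list of 16 other ATP synthase genes, and 3 detected protein-coding genes per subunit. These 3 had the nearest pattern among genes of like level in TMM-scaled CPM. Members and lists were chosen with earlier results of these data known. Scripts for ratios and likeness were tested on simulated data. Alternatives were other sums of transcripts, scalings, filters and limits, leaving out each library, and other motif definitions. Sequences came from GENCODE M21 and RefSeq (GRCm38.p6), in which 4 of the 5 subunits matched a start. That of Atp5a1 is not reported here.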

Additional observations from a re-analysis of the deposited data

Results flagged for a closer look

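In 4 of 46 sets of 6 values, 1 library lay far from the other 5 by Dixon's ratio for 6 values, and chance sets about 1 in 20 such sets apart. Mouse 698 accounts for 3 of them, which share the same measurements. Atp5c1 held 6.29% of the summed F1 TPM in mouse 698 and 7.10% to 7.54% in the other 5 libraries. The ratio of Atp5c1 to Atp5d in TPM was 0.476 in mouse 698 and 0.574 to 0.620 in the others. Over protein-coding transcripts alone, Atp5d held 16.9% of the F1 sum in mouse 698 and 14.99% to 15.7% in the others. For Atp5j2, a membrane subunit outside F1, mouse 688 was at 67.0 TPM and the others at 85.4 to 96.2 TPM.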

How the results depend on the processing

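No paired analysis was possible because mouse numbers in the files were not tied to replicate numbers. Of 158 alternative values, 125 were counted as the same, 28 as moved and 5 crossed 1. The limit was the spread between libraries or a change of 1.5 times. Ratios of highest to lowest library had a stricter limit: a change from 1.247 to 1.14 for Atp5a1 or from 1.21 to 1.10 for Atp5b counted as moved. A median of shares or per-copy ratios without 1 library always lies within the range of the libraries. Those values are among the 125 and could not have moved further. With protein-coding transcripts only, the most abundant isoform only, or expected counts per kilobase of full length, median shares of the F1 sum were 36.6%, 37.3% and 40.7% for Atp5b, 9.13%, 8.23% and 8.54% for Atp5c1, and 15.3%, 14.9% and 14.4% for Atp5d. Atp5e had 15.6% and 15.9% with the first pair of these, and Atp5a1 25.5% with counts per kilobase. Per copy relative to Atp5b, the same sums gave 0.639, 0.635 and 0.628 for Atp5a1 and 0.748, 0.664 and 0.633 for Atp5c1. Atp5d crossed 1, at 1.27, 1.19 and 1.06, and so did Atp5e with the first pair, at 1.29 for each. By construction these sums leave out or weigh down the short isoforms of Atp5b and Atp5a1. Adding near-identical copies changed no value, since there were none.

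With TPM rescaled to protein-coding genes, the ratio of highest to lowest library was 1.14 for Atp5a1 and 1.10 for Atp5b. Without 1 library at a time the ratio for Atp5e was 1.22 to 1.5004 in TPM, and 1.47 to 1.54 in TPM of protein-coding genes and 1.55 to 1.65 in TMM-scaled CPM, both added after seeing the data. The count of subunits with a highest library at least 25% above the lowest was 1 with protein-coding TPM, 1 with TMM-scaled CPM and 1 at a limit of 1.5 times. Of all genes 70.2% passed with protein-coding TPM, 60.8% in TMM-scaled CPM, 47.9% at a limit of 1.5 times and 95.7% of 28038 without the count filter. The motif count was 0 with at least 6 pyrimidines and 3 within 10 bases, a window chosen after seeing the data. The cause was not tested. Depth limits Atp5e most.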

Other observations

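A gene's 6 values on the log2 scale were called separate clusters where their widest gap was larger than the span of the values above it and of those below it. Atp5c1 met this rule on all 3 scales examined, with 3 libraries on either side, and no other subunit did so on all 3. The libraries were not the same: mice 688, 698 and 700 were the lower ones in TPM, and mice 688, 698 and 703 in TMM-scaled CPM and in TPM of protein-coding genes. In TMM-scaled CPM it had 68.7, 67.1, 55.2, 55.4, 68.0 and 57.8 in the order of mouse numbers 678, 687, 688, 698, 700 and 703. The rule was common: it held for 40.6% of detected genes in TMM-scaled CPM, 38.9% in TPM and 41.2% in TPM of protein-coding genes. Atp5e, the subunit with the widest range, met it in TPM, with mouse 688 alone on one side, but not in TMM-scaled CPM, where it had 33.1, 32.5, 21.4, 27.9, 35.3 and 22.9.

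Larp1 had 19.96, 18.77, 6.28, 6.44, 17.48 and 7.32 TPM in the same order. These values were not used to assign genotypes, and clusters were not compared.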
